A study of Mus musculus with 2 samples.

Results

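The 10 genes described here carry out or control peptide presentation by MHC class II, and they were taken by name from the feature list, which holds 48825 features. They are Cd74, H2-Ab1, H2-Aa, H2-Eb1, H2-DMa, H2-DMb1, H2-DMb2, H2-Oa, H2-Ob and Ciita, and all 10 were found in both matrices. Parotid glands (PGs) of wild-type (WT) C3H mice were dissociated, and the cells were run on the 10x Chromium platform, which tags each captured RNA molecule with a unique molecular identifier (UMI). The IR library came from female mice whose head and neck had received 6 Gy a day for 5 days (30 Gy in all) at 6 to 10 weeks of age, with glands taken 10 months later, and the control library from mice that were not irradiated. Each library pooled 2 mice, so a condition is 1 library. No difference between control and IR could be tested, and all intervals below are 95% intervals for counting error only.

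MHC class II molecules are pairs of an alpha and a beta chain that show peptides from endosomes to CD4+ T cells. The invariant chain, encoded by Cd74, holds new pairs together and blocks their groove until proteases such as cathepsin S trim it away. H2-DM then helps exchange the remaining fragment for a peptide, and H2-O restrains H2-DM. The coactivator CIITA, called to the X and Y boxes of these promoters by the RFX and NF-Y factors, sets how much of each is made. B cells, dendritic cells (DCs) and macrophages carry class II constantly, and other cells, endothelium and epithelium among them, can be induced to carry it by interferon gamma.

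Of 5550 control and 7793 IR barcodes, 3378 and 5286 were kept, with medians of 2908 and 2462 UMIs. Only 12 barcodes occurred in both libraries, 3 of them among the kept cells. The kept cells held 97560 class II UMIs in control and 99325 in IR, or 5116 and 4881 in counts-per-million of all UMIs (CPM). Secretory genes took 39.0% of kept UMIs in control and 27.6% in IR, so CPM values were computed within each cell class. Cells were clustered without the class II genes, and each class name stands for a cluster that resembles that cell type by its markers. All 10 listed B cell markers, 10 T cell markers, 11 endothelial markers and 10 acinar markers were raised in the main clusters of those names. Other names rested on fewer markers. Macrophage sub-clusters 9.0, 9.1 and 9.2 had 10, 9 and 5 of 12, while the deepest macrophage sub-cluster had all 12. The smaller B cell cluster had 5 of 10, and striated duct cells had 6 of 8. Levels count captured 3' ends and were not scaled by gene length.

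In the GENCODE annotation of GRCm38, 8 of the 10 are protein-coding genes of the class II region of chromosome 17. From left to right stood H2-Oa (17, 34092340 to 34095234), H2-DMa (34119541 to 34139101), H2-DMb2 (34143307 to 34151555), H2-DMb1 (34153072 to 34160230), H2-Ob (34238903 to 34254414), H2-Ab1 (34257689 to 34269419), H2-Aa (34282744 to 34287823, minus strand) and H2-Eb1 (34305867 to 34316674). Ciita lies on chromosome 16 (10480059 to 10528418). The mice were C3H, which has a working H2-E alpha gene, while the reference is C57BL/6J, in which that gene is annotated as the polymorphic pseudogene H2-Ea-ps. H2-DMb1 and H2-DMb2 are near-identical neighbours, so the split of reads between them is uncertain.

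The promoter stretches below hold letters of the boxes that NF-Y and RFX bind, ATTGG in each and GCAAC in each but H2-DMb2. They are RefSeq sequence of GRCm38.p6, 5′ to 3′ on the gene's strand and before the RefSeq start, with GCAAC (part of the X1 box) and ATTGG (the Y box, CCAAT on the other strand) in capitals.
H2-Aa, chr17:34287855-34287916, minus strand: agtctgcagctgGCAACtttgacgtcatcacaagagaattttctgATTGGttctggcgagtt
H2-Eb1, chr17:34305764-34305824, plus strand: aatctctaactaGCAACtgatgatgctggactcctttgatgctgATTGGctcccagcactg
H2-Ob, chr17:34238806-34238864, plus strand: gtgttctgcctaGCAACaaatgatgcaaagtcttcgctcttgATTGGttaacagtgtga
H2-DMb2, chr17:34145113-34145175, plus strand: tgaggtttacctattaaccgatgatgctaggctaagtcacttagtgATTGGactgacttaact
The Y box began 48 bases before the transcription start in H2-Aa, 59 in H2-Eb1, 57 in H2-Ob and 90 in H2-DMb2. The start counted from is that of RefSeq, and in H2-DMb2 it lies inside the GENCODE gene given above. From the start of GCAAC to the start of ATTGG were 33, 32 and 30 bases in the first 3, and H2-DMb2 had no GCAAC in the window.

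Promoter sequence (250 bases before the start, both strands) was at hand for 7 of the 10 genes. CCAAT was in all 7 and in 33.8% of 32851 promoters. GCAAC was in 5 of the 7, H2-DMb1 and H2-DMb2 being without it, and in 29.9% of all. The ordered pair, GCAAC followed by ATTGG with 25 to 45 bases from start to start and no overlap possible, was in 4 of the 7 (H2-Aa, H2-Eb1, H2-Oa and H2-Ob) and in 277 promoters, or 0.843% of all. These are matches of letters and were not measured as binding here.

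Class II RNA was concentrated in the antigen-presenting cells. The cDC1 subset of DCs, which takes up dead cells and cross-presents their antigens, had the highest level, 64048 CPM in control (13 cells) and 54345 in IR (14 cells). All 8 listed cDC1 markers were raised in that cluster, but its leading genes also held Lyz1, Lyz2 and Il1b, and its purity was not tested. Macrophages stood at 30913 and 35358 CPM (143 and 118 cells) and B cells at 30969 and 31246 (866 and 889 cells). Plasmacytoid DCs stood at 27535 and 26400 CPM (18 and 41 cells), and mature DCs, the Ccr7- and Fscn1-positive cells that migrate to lymph nodes, at 12286 and 12126 (41 and 99 cells). The order of the sums of B cells and macrophages in control could not be told by counting error, while in IR that of macrophages was higher. By the median of single cells macrophages were lower in both libraries. They were at 24904 CPM in control and 16079 in IR, against 32528 and 32502 in B cells. Plasma cells held 3220 and 5075 CPM in 8 and 33 cells. Ciita had 0 UMIs in them in both libraries, which allows up to 63.2 CPM in control and 15.5 in IR by the exact Poisson limit.

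**Figure D1:**
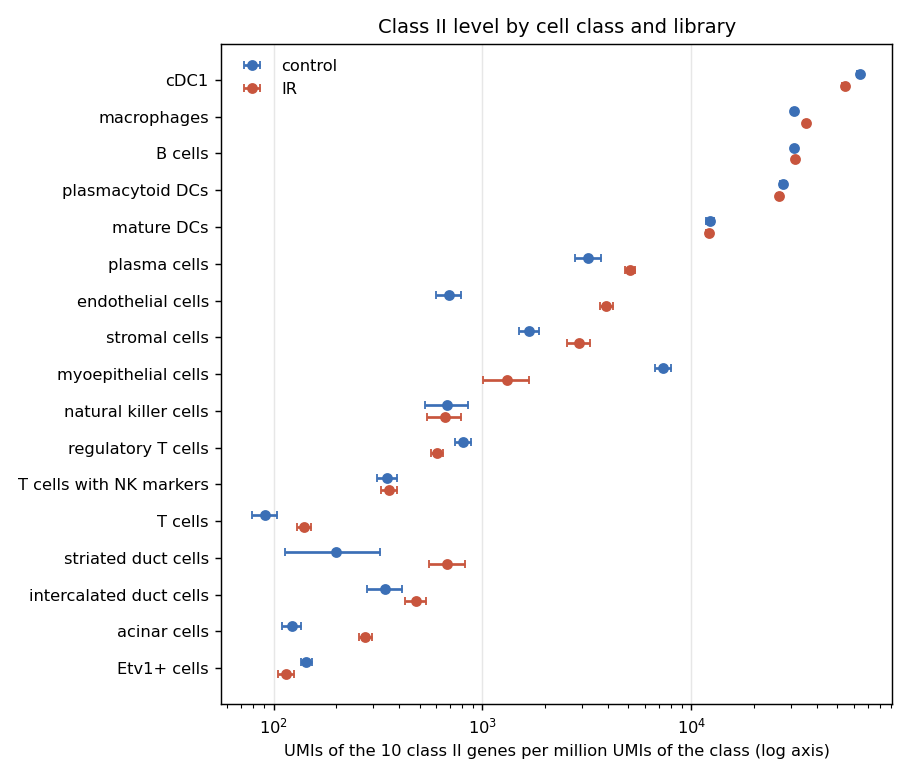
CPM of the 10 class II genes summed (log axis) in each cell class, control in blue and IR in red, with exact Poisson 95% intervals. The antigen-presenting classes lie above 10000 in both libraries, and T cells, duct, acinar and Etv1+ cells lie at or below 681. Regulatory T cells, a class of their own, lie at 808 and 607.

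Stroma and epithelium were far lower. Stromal cells had 1680 CPM in control and 2890 in IR, endothelial cells 689 and 3920, and natural killer cells 678 and 659. Of the epithelium, acinar cells had 123 and 275 CPM, Etv1+ cells 143 and 115, intercalated duct cells 340 and 479, and striated duct cells 198 and 681. These low levels moved with the filter and the scaling. Over the alternatives, control and IR ran from 31.2 to 407 and 133.5 to 824 CPM in acinar cells, 83.6 to 1183 and 273 to 1422 in intercalated duct cells, 150 to 427 and 576 to 1438 in striated duct cells, and 375 to 1949 and 1939 to 4165 in endothelial cells. With the abundant secretory genes left out of the totals, acinar cells stood at 407 and 824 CPM and T cells at 99.1 and 152. T cells, which in mice carry little class II of their own, were at 91 and 140 CPM. A class II UMI was seen in 99.9% and 99.8% of B cells, and in 18.7% and 21.3% of T cells and 16.7% and 21.0% of acinar cells, at medians of 2521 and 2128 UMIs a B cell. Thinned to 1000 UMIs a cell, the shares in T cells were 6.38% and 10.7% and in acinar cells 6.20% and 8.59%. The level of free RNA was not measured, and a share near these was not read as expression.

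B cells carried most of the class II RNA of the suspension, 74.5% of the UMIs in control (74.2 to 74.8%) and 66.5% in IR (66.2 to 66.8%), while they were 25.6% and 16.8% of the cells. DCs gave 11.5% and 15.5% and macrophages 8.94% and 8.41%. The epithelial classes together, about as many cells as the B cells, gave 1.62% and 1.70%. With 1 library per condition, a difference in cell shares between the conditions cannot be told apart from one between the libraries.

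The make-up of the class II RNA was much alike among the presenting cells. Cd74, a protein-coding gene on chromosome 18 (60803848 to 60812652, GRCm38), was the most abundant member, with 57.9% of the class II UMIs of B cells in control and 59.1% in IR, 54.5% and 57.1% in macrophages, and 50.1% and 49.6% in cDC1. The chain genes followed. H2-Ab1, the I-A beta chain, took 12.1% and 11.8% in B cells, 12.6% and 12.3% in macrophages, and 13.8% and 14.2% in cDC1. In mature DCs its share was lower, 5.55% (4.64 to 6.57%) in control and 7.81% (7.02 to 8.65%) in IR, with intervals that did not meet those of B cells or macrophages. H2-Eb1, the I-E beta chain, took 17.6% and 16.6% in cDC1, against 9.45% and 7.69% in plasmacytoid DCs. In plasma cells Cd74 took 93.1% and 78.5%, and in control 1 of the 8 cells held 60.1% of the class II UMIs.

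**Figure D2:**
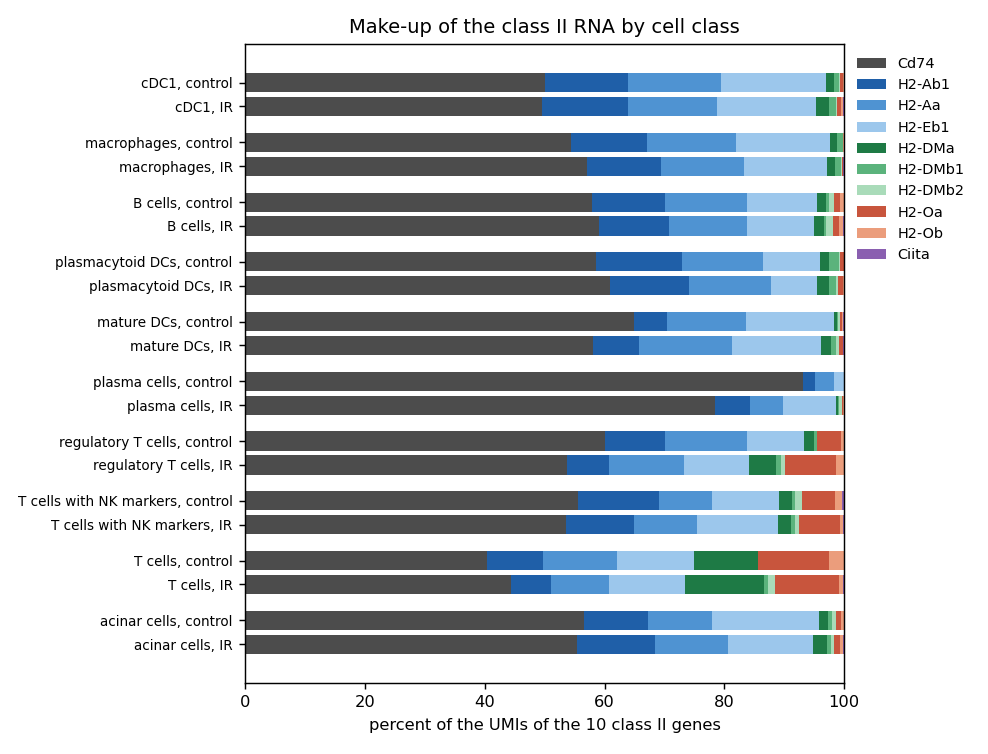
Percent of the UMIs of the 10 class II genes that came from each gene, by cell class and library. Cd74 (dark grey) takes 40.4 to 93.1% of each bar, and H2-Oa (red) and H2-DMa (dark green) take a wider part in T cells than in B cells.

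The peptide editors separated B cells from macrophages. H2-Oa and H2-Ob, the chains of the H2-DM inhibitor, had 1117 UMIs in control B cells and 1119 in IR, which was 35.0% (33.4 to 36.7%) and 34.7% (33.1 to 36.4%) of all H2-DM and H2-O UMIs. In macrophages they had 6 and 16 UMIs, or 2.93% (1.08 to 6.26%) and 7.08% (4.10 to 11.2%). The DCs taken as 1 class lay between, at 19.4% (15.2 to 24.1%) and 20.6% (17.5 to 23.9%). Of the subsets, mature DCs in control were at 32.4% (17.4 to 50.5%), an interval that met the value of B cells. H2-Oa alone stood at 273 and 306 CPM in B cells, 281 and 365 in cDC1, and 3.54 and 59.3 in macrophages. H2-Ob was at 203 and 224 CPM in B cells, and 28.8 and 34.6 in DCs as a whole. The B and macrophage intervals did not meet in either library.

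The H2-DM beta chains were split in a like way. H2-DMb2 made up 63.1% and 70.5% of the H2-DMb UMIs of B cells, 12.4% and 14.2% of those of macrophages, and 23.0% and 24.9% of those of DCs as 1 class. In mature DCs it was 7 of 10 such UMIs in control and 20 of 54 in IR. In CPM, H2-DMb2 was at 283 and 350 in B cells and 39.0 and 63.5 in macrophages, and H2-DMb1 at 166 and 147 in B cells and 276 and 385 in macrophages. The partner chain H2-DMa was close to level, at 434 and 500 CPM in B cells and 390 and 440 in macrophages. Reads that fit both beta genes equally would be left uncounted, and how many there were was not tested.

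Ciita was sparse wherever it was found. It had 42 UMIs in control B cells and 71 in IR, or 17.9 and 33.6 CPM. DCs had 8 and 17 UMIs (21.0 and 25.6 CPM) and macrophages 2 and 8 (7.09 and 33.9 CPM). T cells, 718 and 1890 in number, had 0 and 1.

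Of the genes annotated beside the members, H2-Ea-ps was found in the same cells. H2-Ea-ps stood at 91.2 and 112 CPM in B cells, 156 and 237 in cDC1, and 60.3 and 110 in macrophages. H2-Eb2 was at 16.6 and 17.5 CPM in B cells, with 0 UMIs in macrophages of either library. The level of H2-Ea-ps cannot be read as that of a whole H2-E alpha message, since reads were aligned to the C57BL/6J form.

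Over 33 points, 19 cell classes in the 2 libraries with at least 20 cells each, the gene most like Cd74 outside the members was Spi1, the PU.1 factor of B and myeloid cells (Pearson r of 0.91 on log2(CPM + 10), out of 8381 genes). Next came Cybb (0.90), Unc93b1 (0.90), Ifi30 (0.89), a thiol reductase that unfolds antigens in endosomes, and Ly86 (0.87). Among the members, r with Cd74 was 0.97 for H2-Ab1 and H2-Aa, 0.96 for H2-Eb1, 0.90 for H2-DMa, 0.89 for H2-DMb2, 0.83 for H2-DMb1, 0.68 for H2-Ob and 0.67 for H2-Oa. Among the nearest to Ciita were H2-Ea-ps and Nuak2 (each 0.85), Wdfy4 (0.84) and Spi1 (0.83). Points from one library share its depth and free RNA, and the classes were clustered from the same cells, so these values are a description.

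To compare control with IR, the ratio of CPM in IR over control was taken for each class, and a gene was called where the ratio was at least 1.5-fold in either direction and the gene had at least 25 UMIs over both libraries in that class. In B cells the 10 genes summed had a ratio of 1.01 (0.998 to 1.02), with 72661 UMIs in control and 66012 in IR. Cd74 was at 17945 and 18465 CPM (ratio 1.03, 1.01 to 1.04), H2-Ab1 at 3761 and 3675 (0.98), H2-Aa at 4241 and 4033 (0.95) and H2-Eb1 at 3645 and 3513 (0.96). These 4 genes, the bulk of the class II RNA, were close to level. Of the 10 members, all of which passed the minimum, 1 was called, Ciita, with a ratio of 1.88 (1.26 to 2.82), where 18.3% of 8266 genes were called in B cells. The median ratio was 1.07 for the members and 1.09 for all genes tested.

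Of the editors in B cells, H2-DMb2 had a ratio of 1.24 (1.11 to 1.37), H2-DMa 1.15 (1.05 to 1.26) and H2-Oa 1.12 (1.003 to 1.25), while H2-Ob had 1.10 (0.97 to 1.25) and H2-DMb1 0.89 (0.76 to 1.03). With TMM factors, which scale every ratio of a class alike, the summed ratio in B cells was 0.929. Cell to cell, the 10 genes had a median of 83 UMIs in control B cells (lower and upper quartiles 68 and 99) and 73 in IR (54 and 92). Scaled to each cell's own total the medians were 32528 and 32502 CPM, so the spreads of the libraries overlapped nearly whole.

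Other genes of the pathway in B cells were counted from a list of 37 that the files hold. Of 33 that passed the minimum, 5 were called higher in IR and 0 lower, a share near the 13.3% called higher among all genes tested in B cells. They were March1, a ligase that sends surface class II for breakdown (47 and 100 UMIs, ratio 2.36, 1.65 to 3.42), Cd83, which opposes it (1027 and 1479 UMIs, 1.60, 1.48 to 1.73), Cd44 (1.58) and Cxcr4 (1.56), which act with Cd74 as receptors for Mif, and the RFX subunit Rfxank (26 and 36 UMIs, 1.54, 0.90 to 2.65). Cathepsin S, Ctss, was level (334 and 344 CPM, ratio 1.03), as was Ifi30 (759 and 798 CPM, 1.05). Irf8, a transcription factor of B cells and DCs, was at 236 and 315 CPM (ratio 1.34).

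Macrophages as a whole had a class II ratio of 1.14 (1.11 to 1.18) in the sum of their UMIs. The median cell went the other way. Scaled to each cell's own total, it was at 24904 CPM in control and 16079 in IR. Cells with 5 or more class II UMIs were 74.8% and 59.3% of the class, and cells without any were 13.3% and 22.9%. Cd74 was at 16839 CPM in control and 20207 in IR (ratio 1.20), H2-Ab1 at 3895 and 4339 (1.11), H2-Aa at 4629 and 4898 (1.06) and H2-Eb1 at 4817 and 4924 (1.02). Of 7 members that passed the minimum 1 was called, H2-DMb2 (11 and 15 UMIs, 1.63, 0.70 to 3.92), against 30.5% of 2511 genes. Under the alternatives the summed ratio ran from 1.02, once the cells scored most doublet-like were dropped, to 1.58 with at least 500 genes a cell.

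The macrophage class was made of 4 sub-clusters that differed more from each other than the libraries did. The deepest of them, led by C1qa, C1qb and C1qc and called the deep C1q sub-cluster here, had 30969 CPM in control (35 cells) and 53276 in IR (33 cells), a ratio of 1.72 (1.66 to 1.78). Its cells had medians of 4016 UMIs in control and 3324 in IR. The ratios of the sub-clusters were taken under the main clustering only, and whether they hold under the alternatives was not tested. Sub-cluster 9.0, also led by C1qa, had 44549 and 44762 CPM in 70 and 32 cells. Sub-cluster 9.1, led by Lyz2 and Lyz1, had 11775 and 2757 CPM in 13 and 41 cells, a ratio of 0.23, and sub-cluster 9.2 had 1920 and 3098 in 25 and 12 cells. The 3 last were shallow, with medians of 660 to 959 UMIs a cell.

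In the deep C1q sub-cluster all 6 members that passed the minimum had intervals above 1. Cd74 stood at 16718 and 30463 CPM (ratio 1.82, 1.74 to 1.91), H2-Ab1 at 4087 and 6691 (1.64), H2-Aa at 4729 and 7690 (1.63), H2-Eb1 at 4655 and 6973 (1.498), H2-DMa at 387 and 629 (1.62) and H2-DMb1 at 308 and 637 (2.07, 1.46 to 2.96). Of these 6 members 5 were called, with H2-Eb1 just short of the line, against 36.8% of 1719 genes. The median ratio was 1.63 for those members and 0.94 for all genes tested. Cells of 1 library share its 2 mice, so the spread between mice was not measured.

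Of the processing genes in macrophages, Ctsb, cathepsin B, was at 2718 CPM in control and 1410 in IR (ratio 0.52, 0.45 to 0.59) and the reductase Ifi30 at 893 and 525 (0.59, 0.47 to 0.73). Ctss, the protease that trims the invariant chain, was at 3045 and 2536 (0.83, 0.75 to 0.93), and Ifngr1, a chain of the interferon gamma receptor, at 85.1 and 157 (1.84, 1.07 to 3.22). Of 22 pathway genes that passed the minimum in macrophages, 2 were called higher and 3 lower, a smaller share than the 30.5% called among all genes tested.

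DCs together had a class II ratio of 0.79 (0.77 to 0.81), yet each subset was nearer to level. The ratio was 0.85 in cDC1 (0.82 to 0.88), 0.96 in plasmacytoid DCs (0.92 to 1.004) and 0.99 in mature DCs (0.94 to 1.04). The mature DCs, the lowest of the 3, were 41 of 72 DCs in control and 99 of 154 in IR. The cDC1, the highest of the 3, were 13 of 72 and 14 of 154. Their median cell, scaled to its own total, was at 60496 CPM in control and 66799 in IR, against the direction of their sum. A single control cell held 1304 of the 6159 cDC1 UMIs, or 21.2%. Of the 10 members 0 were called in DCs, where 29.3% of 4730 genes were. H2-Eb1 was the farthest from level, at 4392 and 2967 CPM (ratio 0.68, 0.63 to 0.72). Of 29 pathway genes that passed, 2 were called higher and 1 lower, and no test stands behind these counts.

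Within mature DCs the members did not move alike. Of 8 members that passed the minimum, 4 were called higher in IR and 0 lower. Among all 2560 genes tested there, 35.2% were called, 25.8% as higher. H2-Ob had 3 UMIs in control and 1 in IR. H2-DMa had 13 UMIs in control and 73 in IR, or 70.4 and 208 CPM (ratio 2.96, 1.63 to 5.82), and H2-DMb1 had 3 and 34 UMIs (5.97, 1.88 to 30.4). H2-Ab1 was at 682 and 947 CPM (1.39, 1.13 to 1.72), and Cd74 at 7967 and 7034 (0.88, 0.83 to 0.94). The same order of H2-DMa held in each of the mature DC sub-clusters, with 57.8 and 159 CPM in the deeper (26 and 47 cells) and 254 and 572 in the shallower (15 and 52 cells). The control side of these values is small.

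In endothelial cells the summed ratio was the largest of the 9 classes compared, 5.69 (4.89 to 6.63), from 223 UMIs in 81 control cells and 785 in 44 IR cells. Cd74 was at 458 and 2372 CPM, H2-Ab1 at 105 and 410, H2-Aa at 77.3 and 554, and H2-Eb1 at 37.1 and 385. All 4 members that passed the minimum were called, against 25.2% of 3277 genes. The value did not keep its direction when the cells were drawn otherwise. It was 0.99 with at least 500 genes a cell, 0.61 without integration of the libraries and 2.81 with a mitochondrial limit of 10%.

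The endothelial RNA was held by a few cells. In control 5 of 81 cells had 5 or more class II UMIs and held 94.2% of them, and in IR 6 of 44 cells held 98.3%. A single IR cell had 372 UMIs, 47.4% of the class. Of these cells 2 of 5 in control and 5 of 6 in IR also had UMIs of the B cell or myeloid identity genes, lists of 8 and 15 genes chosen after the values were seen (Cd79a, Ms4a1, C1qa, Csf1r and the like). Without every cell that had such a UMI, the levels were 508 CPM in control and 150 in IR, a ratio of 0.29 (0.18 to 0.46). Among cells with under 5 class II UMIs they were 47.2 and 85.0 CPM, a ratio of 1.80 (0.77 to 4.22). Ctss had 11 and 43 UMIs in the class, and Cd83 had 0 and 30. Of the 16 pathway genes that passed, 6 were called higher and 1 lower, against 13.5% and 11.7% of all genes tested. The 1 called lower was, like Ctss, a gene of peptide and invariant chain processing. The part of mixed droplets in this ratio was not tested.

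**Figure D3:**
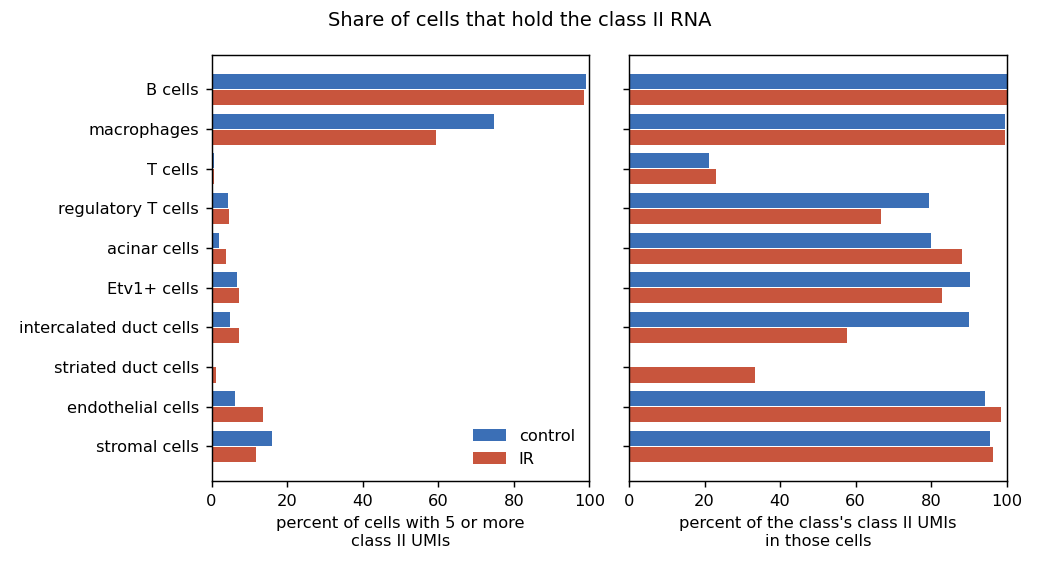
Left, percent of the cells of each class with 5 or more class II UMIs, and right, percent of the class's class II UMIs that those cells held, control in blue and IR in red. In B cells nearly every cell is such a cell, and in endothelial cells 6.17% and 13.6% of cells hold 94.2% and 98.3% of the RNA.

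In acinar and Etv1+ cells, the secretory cells, few cells held the RNA. Acinar cells had 364 class II UMIs in control and 755 in IR, a ratio of 2.24 (1.97 to 2.55), and all 4 members that passed were called (Cd74 2.19, H2-Ab1 2.74, H2-Aa 2.55, H2-Eb1 1.78), against 31.3% of 3745 genes and a median ratio of 1.26. But 8 of 389 control cells held 79.9% of the RNA and 15 of 385 IR cells held 88.1%, and 7 of the 8 and 11 of the 15 had UMIs of the identity lists. In the other cells the level was 25.1 and 34.3 CPM, a ratio of 1.37 (0.99 to 1.89). In Etv1+ cells the summed ratio was lower, 0.80 (0.72 to 0.89), from 1087 and 545 UMIs, with Cd74 at 0.89 and H2-Aa at 0.66. A single control cell held 469 of the 1087 UMIs, or 43.1%. In all, 18 of 263 control and 19 of 261 IR Etv1+ cells held 90.2% and 82.9%. In the other Etv1+ cells the level was 15.5 and 22.2 CPM, a ratio of 1.43 (1.07 to 1.91). Those other cells had medians of 21842 UMIs in control and 5070.5 in IR. They were set apart by a fixed count of class II UMIs, which cuts at a lower CPM in deeper cells. This ratio therefore cannot tell whether the direction turned.

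Intercalated duct cells, which lead saliva out of the acini, differed from the acinar cells in how the RNA was spread. Their summed ratio was 1.41 (1.13 to 1.77). When CPM totals excluded the secretory genes, it was 1.20 (0.96 to 1.51). Of the 4 members that passed 3 were called, against 35.9% of 1203 genes. They were H2-Ab1 (2.01, 0.98 to 4.52), H2-Aa (1.81, 0.93 to 3.78) and H2-Eb1 (1.78, 0.89 to 3.87). Cd74 was at 1.24 (0.94 to 1.67), and the intervals of all 4 members included 1. A class II UMI was in 13.9% of control cells (7.79 to 22.2%) and 50.4% of IR cells (41.3 to 59.5%). Thinned to 1000 UMIs a cell, it was in 5 of 58 and 20 of 94 cells. Among cells with no UMI of the identity lists the level was 31.7 CPM in 91 control cells and 247 in 92 IR cells, a ratio of 7.80 (3.80 to 18.6).

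The sub-clusters differed in their share of the libraries. Sub-cluster 7.3 had 62 IR cells and no control cell, with a median of 7350 UMIs, and stood at 570 CPM (504 to 642). Of its cells 28 had UMIs of the identity lists, against 7 of 52 control and 3 of 28 IR cells of sub-cluster 7.1. The latter were shallower, with medians of 2829.5 and 2481.5 UMIs. In the sub-clusters that both libraries shared, the summed level was lower in IR, with 346 and 173 CPM in sub-cluster 7.1 (52 and 28 cells) and 564 and 140 in sub-cluster 7.2 (38 and 31 cells). The control sums were carried by 4 and 1 cells with 5 or more class II UMIs. Without such cells the levels were 24.1 and 77.8 CPM in sub-cluster 7.1, 122 and 140 in sub-cluster 7.2, and 269 in sub-cluster 7.3. Those of sub-clusters 7.1 and 7.2 rest on few UMIs. The IR value of sub-cluster 7.2 came from 4 UMIs, and its interval (38.1 to 358 CPM) held the control value. Thinned to 1000 UMIs, 14 of the 62 cells of sub-cluster 7.3 had a class II UMI, against 4 of 44 control cells and 2 of 21 IR cells of sub-cluster 7.1. With 1 library each, a difference between the conditions and a difference between the suspensions in this sub-cluster cannot be told apart. Over the alternatives that did not leave out cells by their class II or identity UMIs, the summed ratio ran from 0.46 with a mitochondrial limit of 10% to 3.26 once the cells scored most doublet-like were dropped.

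Striated duct cells, the next segment of the duct, also had a sub-cluster found mainly in IR. Their summed ratio was 3.43 (2.01 to 6.24) from 16 and 99 UMIs, and the 1 member that passed, Cd74, was called (10 and 63 UMIs, 3.50), against 68.8% of 699 genes and a median ratio of 0.58. Sub-cluster 7.4 held 49 of the 79 IR cells and 3 of the 92 control cells, and stood at 576 CPM in IR (441 to 738), with 20 of 46 thinned cells having a class II UMI. In sub-cluster 7.0 the libraries had 218 CPM (119 to 366, 14 UMIs in 72 cells) and 161 (43.9 to 412, 4 UMIs in 27 cells), which cannot be told apart by counting error. There 2 of 17 control and 2 of 10 IR thinned cells had a class II UMI. A single IR cell held 33 of the 99 UMIs, and it had a UMI of the B cell identity list. Among cells with under 5 class II UMIs the levels were 198 and 468 CPM, a ratio of 2.36 (1.35 to 4.37). The median depth of the class was 714 UMIs in control and 2002 in IR. The summed ratio was 0.59 without integration of the libraries, so its direction was not stable.

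**Figure D4:**
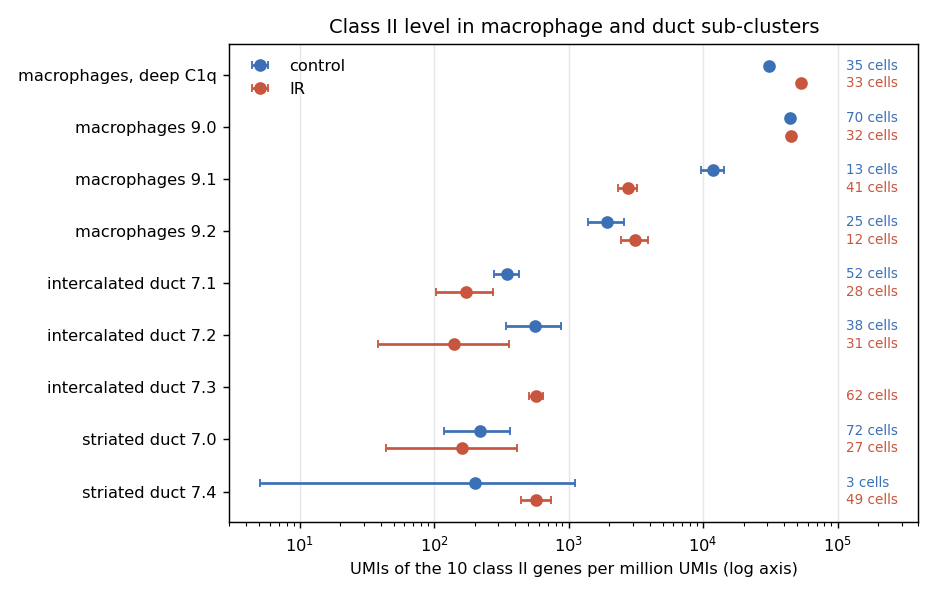
CPM of the 10 class II genes summed (log axis) in the macrophage and duct sub-clusters, control in blue and IR in red, with exact Poisson 95% intervals and the number of cells at the right. The duct sub-clusters found mainly in IR (7.3 and 7.4) lie at 570 and 576. In the shared duct sub-clusters the IR point lies left of the control point, with intervals that meet in 7.0 and 7.2. Without cells of 5 or more class II UMIs, the levels were 24.1 and 77.8 in 7.1 and 122 and 140 in 7.2, from few UMIs.

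Myoepithelial cells (MECs), which squeeze the acini, had 7334 CPM in control and 1311 in IR, from 17 and 25 cells. A single control cell held 492 of the 538 UMIs, or 91.4%. Stromal cells had 1680 and 2890 CPM from 31 and 17 cells, of which 1 cell in each library held 66.6% and 63.1%. Among cells with under 5 class II UMIs the levels were 286 and 576 CPM in MECs, a ratio of 2.02 (0.93 to 4.73) against the opposite direction of the sum, and 95.4 and 168 in stromal cells (1.76, 0.67 to 4.38).

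T cells had 203 class II UMIs in 718 control cells and 650 in 1890 IR cells, a ratio of 1.54 (1.32 to 1.82). Of 6 members that passed 3 were called (Cd74 1.70, H2-DMa 1.88 and H2-Eb1 1.52), against 22.2% of 9054 genes and a median ratio of 1.15. Unlike endothelial and acinar cells, few of them stood out, since 4 control cells and 11 IR cells with 5 or more UMIs held 21.2% and 23.1%. The ratio was 1.47 (1.22 to 1.78) without the cells that had a UMI of the identity lists, and ran from 1.31 to 1.79 over the other alternatives. The part of free RNA at these levels was not tested. Barcodes with under 200 genes stood at 172 and 538 CPM.

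The mix of members in T cells was not that of B cells. H2-Oa made 22.6% (15.1 to 31.8%) of the sum of H2-Oa and Cd74 UMIs in control T cells and 19.5% (15.5 to 24.0%) in IR, against 1.497% and 1.63% in B cells. H2-DMa made 21.2% (13.8 to 30.3%) and 22.9% (18.8 to 27.5%), against 2.36% and 2.64% in B cells, while H2-Ab1, at 18.8% and 13.0%, was near the 17.3% and 16.6% of B cells. H2-Oa was found in 22 of 673 control T cells and 64 of 1755 IR T cells with no UMI of the identity lists, or 3.27% and 3.65%. In acinar cells it was in 0 of 361 and 1 of 345 such cells, where 0 allows up to 0.831% of cells with a UMI. The median depths were 3095 and 2423 UMIs in T cells and 5033 and 5379 in acinar cells, but much of the latter is secretory RNA, and these shares were not compared at an equal depth of other genes. The part of free RNA in the mix of T cells was not tested.

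The other T cell classes held the same members in other amounts. In T cells with natural killer (NK) cell markers H2-Oa made 8.91% and 11.3% of its sum with Cd74. H2-DMa, at 3.66% and 3.96%, had intervals that met those of B cells. But 5 of 219 control and 10 of 397 IR cells held 89.4% and 81.1% of the class II UMIs of this class. All of these cells had UMIs of the identity lists. In the cells with no such UMI, Cd74, H2-Oa and H2-DMa had 7, 12 and 4 UMIs in control and 26, 24 and 6 in IR. In regulatory T cells, marked by Foxp3 and Ctla4, Cd74 was in 52 of 203 control cells and 100 of 481 IR cells with no UMI of the identity lists, or 25.6% (19.8 to 32.2%) and 20.8% (17.2 to 24.7%), against 6.98% and 7.75% of such T cells. Their summed level was 808 and 607 CPM, of which 10 of 224 control cells and 25 of 543 IR cells held 79.3% and 66.7%. In the other cells it was 179 and 215 CPM, a ratio of 1.20 (0.97 to 1.51). H2-Oa was at 32.3 and 51.6 CPM in regulatory T cells and 10.7 and 15.1 in T cells. None of these T cell values could be tested between control and IR.

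**Figure D5:**
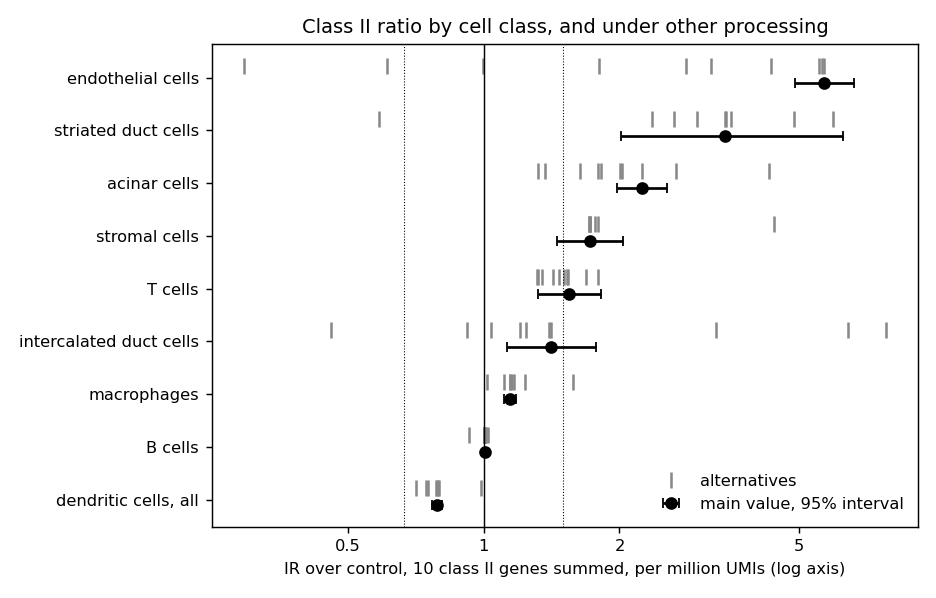
Ratio of IR over control for the 10 class II genes summed (log axis) in 9 cell classes. Black points are the main values with exact 95% counting intervals, grey ticks are the values under other processing, and dotted lines mark 1.5-fold. B cells stay between 0.93 and 1.02, while endothelial, striated duct and intercalated duct cells cross 1.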

How the data were processed

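The counts deposited by the authors are raw UMI counts per gene and barcode, 1 matrix per condition, made with Cell Ranger 3.0.1 on mm10 per the labels, with no scaling. As in the authors' methods, a cell needed 200 or more genes and no more than 5% mitochondrial UMIs. The members, lists and tests here were chosen with earlier results of these data known.

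Cells were integrated by anchors and clustered in Seurat 5.3.0 (R 4.3.3) on 2000 variable genes without the class II genes, with 30 components at resolution 0.3. Ducts were taken from resolution 0.4, and clusters of at most 500 cells were split at 0.8. A cluster was named where at least 3 listed markers had at least 5 UMIs and 2 times the CPM of other cells. This naming rule and the split were set after the clusters were seen, so shares may differ from those of another annotation. Doublets were kept, because Scrublet (scanpy 1.11.5) called 32 of 3378 control cells and 1 of 5286 IR cells and so had not worked. The 6% of cells with the highest scores were left out as an alternative, and how well these scores mark doublets was not tested.

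UMIs were summed per class and library and scaled to CPM. Intervals, in scipy 1.17.1, are exact Poisson for levels, conditional binomial for ratios and Clopper-Pearson for shares. A share at 0 is limited to 3 counts of its total. Cells are not replicates, so with 1 library per condition no p-value was computed. Totals were 19068309 and 20348028 kept UMIs, so a member under 25 UMIs in a class has a wide interval. Named genes were the 10 members, the listed pathway genes and the 5 most like Cd74 and Ciita, some of which are not reported here. The alternatives were other barcode filters, clustering, scaling (edgeR 4.0.16 TMM factors among them), minimum counts and folds. The Poisson interval, the ratio with its interval and the fold call were tested on simulated Poisson counts, which held no spread between mice. The other steps were not tested in this way.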

Additional observations from a re-analysis of the deposited data

Results flagged for a closer look

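Macrophage sub-clusters differed in the direction of IR over control for the 10 class II genes summed. The ratio was 1.72 in the deep C1q sub-cluster and 0.234 in sub-cluster 9.1, and this difference was not tested, since each condition is 1 library. Sub-cluster 9.1 had 104 class II UMIs in control and 148 in IR.

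Endothelial cells had a ratio of 5.69 and MECs 0.179, a difference that was not tested either. In both classes few cells held the RNA.

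Barcodes left out of the comparisons also held class II UMIs. Those with over 5% mitochondrial UMIs had 10687 CPM in control (1260 barcodes) and 12276 CPM in IR (1858 barcodes), above the 5116 and 4881 CPM of the kept cells. Those with under 200 genes had 172 CPM in control and 538 CPM in IR, from 912 and 649 barcodes.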

How the results depend on the processing

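No paired analysis was possible because each condition is 1 library and no value comes from a test. In all 6 alternatives for the level, 6 class and library points lay at or above 10000 CPM, as in the main values, out of 18 points (16 with at least 500 genes a cell, where striated duct cells were not named). Of 9 classes, 5 were past 1.5-fold and 3 past a fold of 2. B cells, DCs and macrophages gave 92.6% of the class II UMIs, and 92.8% with a mitochondrial limit of 10%, 92.0% with at least 500 genes and 93.2% with the class II genes kept among the variable genes.

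The ratios of IR over control below lay outside their main counting interval. With a mitochondrial limit of 10% they were 1.24 in macrophages, 0.746 in DCs, 2.81 in endothelial cells and 0.458 in intercalated duct cells, where the direction turned. With at least 500 genes a cell they were 1.02 in B cells, 1.58 in macrophages, 0.754 in DCs, 1.04 in intercalated duct cells and 0.995 in endothelial cells, where the direction turned. Without integration they were 0.987 in DCs and 1.31 in T cells. There the direction turned in endothelial cells (0.612), striated duct cells (0.587) and intercalated duct cells (0.917, 0.796 to 1.06). With TMM factors they were 0.929 in B cells and 0.709 in DCs. Without the highest doublet scores they were 1.02 in macrophages, 4.33 in endothelial cells and 3.26 in intercalated duct cells. With the class II genes kept, endothelial cells had 3.19. For all of these the cause was not tested. The last 2 alternatives were chosen after the data were seen. Without cells with B cell or myeloid identity UMIs the ratio was 0.294 in endothelial cells, turning direction, and 7.80 in intercalated duct cells. Without cells with 5 or more class II UMIs it was 1.80 and 6.42. The acinar ratio ran from 1.32 to 4.28. Depth limits the duct classes, where 4 of the 10 members reached 25 UMIs in intercalated and 1 in striated duct cells.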

Other observations

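Red cell clusters held class II UMIs at 4105 CPM in control (22 cells) and 2810 in IR (135 cells), with a UMI in 54.5% and 44.4% of cells. Their make-up gave H2-O 39.3% of the H2-DM and H2-O UMIs in control, from 28 UMIs. In control 9 of the 22 cells held 99.5% of the class II UMIs, and all 9 had UMIs of the B cell identity list. The other 13 stood at 28.8 CPM. In IR 27 of the 135 cells held 86.9%, and 16 of the 27 had UMIs of the identity lists. Of the IR cells 122 were of sub-cluster 6.0, which held 0 control cells, so the libraries are not compared in like cells. Cycling cells stood at 516 CPM in control (17 cells) and 5041 in IR (62 cells). In IR 33 of the 62 had 5 or more class II UMIs, and 26 of the 33 had UMIs of the B cell identity list. Neutrophils had 0 class II UMIs in 3 control cells and 3 in 9 IR cells.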
